A study of Mus musculus with 12 samples.

Results

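The response of mouse monocytes to lipopolysaccharide (LPS) was described across all genes in 6 of the 12 RNA sequencing libraries of the series, 3 labelled as given LPS only and 3 labelled as given no treatment. The cells of all 6 libraries were bone marrow monocytes of wild-type (WT) C57Bl6J mice, and none of the 6 had been exposed to platelets. The libraries were chosen by their titles and treatment labels, with no use of their counts. The other 6 libraries, of cells held with platelets overnight and washed before LPS or no further treatment, entered through the filter on low counts, the shared estimate of spread and a closing comparison of the LPS effects. The dose of LPS, the time of exposure, the way the monocytes were isolated and whether replicates came from separate mice or cultures are not given in the labels. The p-values therefore cover only variation among these particular libraries, part or all of which may be technical.

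LPS is a glycolipid of the outer membrane of Gram-negative bacteria. On monocytes and macrophages it is handed by CD14 to the complex of Toll-like receptor 4 (TLR4) and MD-2, which signals through the adaptors MyD88 and TRIF. The MyD88 arm activates NF-kB and MAP kinases and, with them, inflammatory cytokine genes, while the TRIF arm activates IRF3 and interferon beta, which acts back on the cells through the interferon receptor and STAT factors. The same signals induce the inhibitors, phosphatases and RNA-decay factors that later damp them.

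The 6 libraries held 20060867 to 32155727 counts, so that 3 counts, taken as the floor of detection, corresponded to 0.102 to 0.163 CPM (counts of a gene per 1000000 counts of its library). Library totals were first adjusted with TMM factors (trimmed mean of M-values). Levels are given for single libraries in the order of replicates 1, 2 and 3 and otherwise as mean ± SD over 3 libraries. Changes are log2 fold changes of LPS against untreated ± standard error (SE) from edgeR's quasi-likelihood fit. A gene is called, and said to have risen or fallen, where the p-value adjusted by the Benjamini-Hochberg method over all 13151 tested genes was under 0.05. On the first principal component of these 6 libraries, which held 87.0% of the variance, the LPS libraries scored −87.3 to −82.8 and the untreated libraries 84.4 to 86.0. The second component held 4.87% and separated LPS replicate 2, at 34.0, from LPS replicate 3, at −34.9. Monocyte and macrophage markers summed to 40013 to 43997 CPM in untreated and 43044 to 47561 CPM in LPS libraries, led by the lysozyme gene Lyz2 (31194 ± 1892 and 28263 ± 1861 CPM). The receptor of the monocyte growth factor M-CSF, Csf1r, stood at 1372 ± 63.5 CPM untreated and 1708 ± 54.7 CPM with LPS (log2 0.32 ± 0.13, adjusted p = 0.0552, and log2 −0.06 by library size alone, a scaling described further on). Of 12 T and NK cell, 9 B cell and 11 stromal markers 1, 2 and 5 had enough counts to be tested. The T and NK cell list summed to 0.877 to 1.61 CPM untreated and 0.615 to 1.04 CPM with LPS. The B cell list summed to 20.3 to 23.3 and 34.9 to 37.5 CPM, led by the immunoglobulin heavy chain gene Ighm, which rose from 18.6 ± 2.15 to 33.8 ± 1.10 CPM. Neutrophil markers summed to 379.9 to 408 CPM untreated and 283 to 351 CPM with LPS. Platelet markers summed to 3794 to 4502 and 3907 to 4721 CPM, nearly all of it Pf4 (3843 ± 365 and 4166 ± 439 CPM), in libraries that had no platelets added.

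LPS changed 6661 of the 13151 tested genes, or 50.7%. Of these, 3640 rose (27.7% of tested genes) and 3021 fell (23.0%). The median called rise was 1.96-fold and the median called fall 1.89-fold, so that the 2 directions differed mainly in their largest changes. At least 4-fold, 1093 genes rose and 503 fell, and at least 10-fold 638 rose and 150 fell. A gene near the floor in untreated cells can be seen to rise 10-fold but not to fall 10-fold. Genes that passed the filter on low counts only through LPS libraries could be called higher but not lower. With genes at 0 counts in a group put at their lower bound, 582 rose and 137 fell at least 10-fold, and 23 rose and 0 fell at least 1000-fold. The genes at least 10-fold higher had a median of 0.140 CPM in untreated and 8.88 CPM in LPS libraries, and 436 of the 638 lay under 1 CPM in untreated cells. The genes at least 10-fold lower went from a median of 2.27 to 0.120 CPM. The groups of 3 libraries did not overlap in 6550 of the 6661 called genes and in 7961 of all 13151 tested genes.

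**Figure D1:**
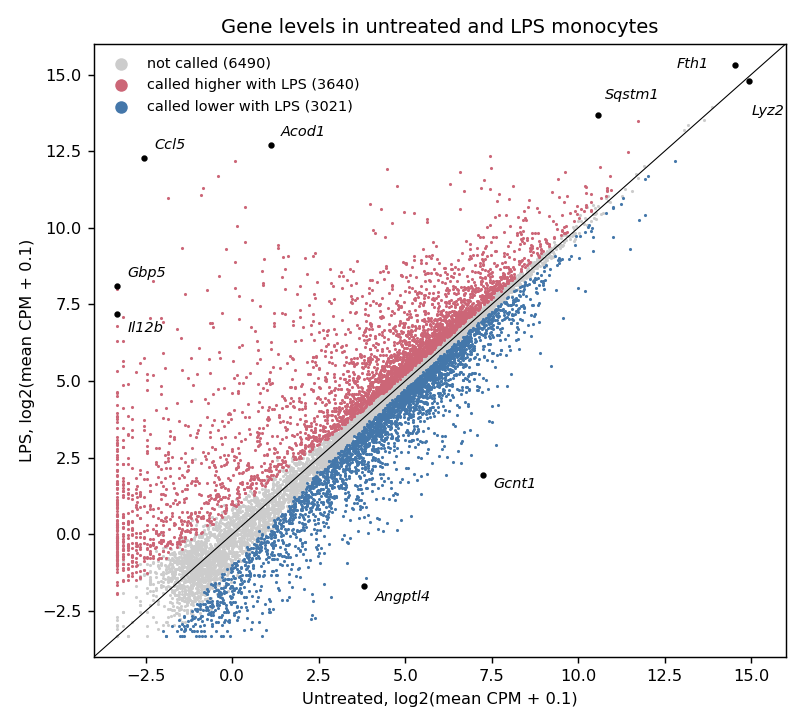
Each point is 1 of the 13151 tested genes, placed by log2 of its mean CPM plus 0.1 over 3 untreated libraries (x axis) and 3 LPS libraries (y axis), with the line of equal levels. The largest of the called rises (3640) reach far from the line at low untreated levels, the largest of the called falls (3021) lie closer to it, and named genes are marked in black.

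Genes that rose took 28.2 to 28.6% of the counts of untreated libraries and 52.1 to 53.1% of those of LPS libraries. Genes that fell took 23.5 to 24.4% and 10.7 to 11.0%. The 638 genes at least 10-fold higher went from 0.414 to 0.425% of counts to 10.8 to 11.1%. Such a shift bears on scaling. By TMM the median log2 change of all tested genes was 0.01 and 54.6% of called genes were higher. By upper-quartile factors the median was −0.19 and 37.9% of 7000 called genes were higher, and by library size alone the median was −0.37 and 26.3% of 8108 were higher. Of the 6661 called genes, 1527 had changes under 0.5 on the log2 scale, a size at which the scaling can set the call or the sign. Counts are by TMM unless another scaling is named, and the counts by library size alone are added for lists in which that scaling turned or evened the balance of called rises and falls.

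**Figure D2:**
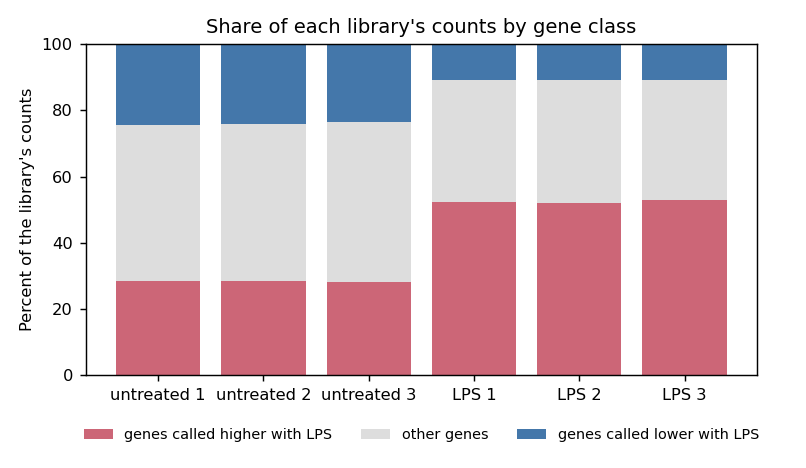
Stacked bars give, for each of the 6 libraries, the percent of its counts in genes called higher with LPS (bottom), called lower (top) and all other genes (middle). The bottom part covers 28.2 to 28.6% in untreated and 52.1 to 53.1% in LPS libraries.

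The gene with the largest rise by log2 change was Ccl5, a chemokine for T cells and monocytes. It stood at 0.175, 0.0351 and 0 CPM in the untreated libraries and at 5026, 5692 and 4261 CPM in the LPS libraries, a total of 6 against 357156 counts (log2 16.04 ± 0.32, adjusted p = 2.5e-15). Next came genes with no count in any untreated library, whose folds are lower bounds taken against 3 counts per library. Gbp5, a guanylate-binding protein that promotes inflammasome assembly, reached 229.9, 269.5 and 325 CPM (at least 2639-fold higher). Shisa3, a membrane protein gene, reached 248, 259 and 261 CPM (at least 2457-fold). Il12b, the p40 subunit shared by IL-12 and IL-23, reached 144, 158 and 139 CPM (at least 1411-fold). Nos2, the inducible nitric oxide synthase, reached 94.5, 105 and 135 CPM (at least 1072-fold). The aggrecanase Adamts4 (79.9 ± 4.16 CPM), the TGF-beta-activating integrin Itgb8 (40.4 ± 6.55 CPM), the IL-12 p35 subunit Il12a (24.8 ± 0.811 CPM) and Ifit1bl1 (24.4 ± 2.29 CPM) were also at 0 counts before LPS. In all, 16 genes had no untreated count and at least 10 CPM with LPS, and 0 genes had the opposite pattern.

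Measured by reads rather than by fold, the largest rises were in iron storage, antioxidant and selective autophagy genes as well as cytokines. The ferritin heavy chain Fth1 went from 23959 ± 1552 to 40869 ± 4923 CPM (log2 0.77 ± 0.10), the autophagy receptor Sqstm1 (p62) from 1529 ± 7.76 to 13200.0 ± 431 CPM (log2 3.11 ± 0.06) and the peroxiredoxin Prdx1 from 3434 ± 231 to 11395 ± 1163 CPM (log2 1.73 ± 0.10). Acod1, the enzyme that makes itaconate, held 2.77, 1.86 and 1.56 CPM untreated and 7142, 6395 and 6576 CPM with LPS. The TNF receptor 2 gene Tnfrsf1b held 183, 174 and 165 CPM untreated and 5178, 4942 and 5418 CPM with LPS. These 5 genes were picked among called genes whose groups did not overlap, so their separation was set by the choice.

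Among the largest falls were a lipase inhibitor, a cannabinoid receptor and a glycosyltransferase. Angptl4, a secreted inhibitor of lipoprotein lipase, fell from 12.5, 14.8 and 14.3 to 0.398, 0.122 and 0.109 CPM (60.6-fold lower). The cannabinoid receptor Cnr2 fell from 16.3, 15.5 and 11.5 to 0.326, 0 and 0.490 CPM (55.1-fold). The glycosyltransferase Gcnt1, which builds core 2 O-glycans, fell from 175, 147 and 130.1 to 3.76, 2.60 and 4.69 CPM (41.4-fold). No overlap between the groups was a condition for naming these 3 genes. Rab3il1, a Rab exchange factor, went from 196 ± 3.10 to 7.35 ± 1.16 CPM, and the sorting nexins Snx24 and Snx30 fell 24.4-fold and 19.7-fold. The urokinase gene Plau fell 23.1-fold, the Rab GTPase-activating gene Tbc1d2 20.5-fold, the Ets factor Etv5 20.2-fold and the organic anion transporter Slco2b1 19.9-fold. By reads, the largest falls were the cathepsin Ctsl (3929 ± 104 to 1368 ± 60.6 CPM), the cathepsin Ctsd (7131 ± 90.7 to 4676 ± 109 CPM), the metalloprotease Adam8 (2890.3 ± 104 to 639 ± 54.4 CPM) and the lipid droplet coat protein Plin2 (3472 ± 71.1 to 1227 ± 16.2 CPM). The endocytic adaptor Dab2 fell from 1180.3 ± 68.9 to 246 ± 6.24 CPM.

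In the receptor pathway itself, 20 of 31 tested genes rose and 3 fell, against 27.7% and 23.0% of all genes, with a median log2 change of 0.99. The co-receptor rose and the receptor fell. Cd14 stood at 191, 208 and 224 CPM untreated and 2313, 2379 and 1949.5 CPM with LPS (log2 3.41 ± 0.10), while Tlr4 stood at 65.3, 52.6 and 48.5 and 16.9, 12.7 and 16.8 CPM (log2 −1.84 ± 0.19). The groups did not overlap for either gene. Downstream, the adaptor Traf1 rose from 4.21 ± 0.752 to 521 ± 9.85 CPM, the ubiquitin ligase Peli1 from 45.6 ± 4.16 to 638 ± 25.9 CPM and the kinase Irak2 from 49.1 ± 0.911 to 372 ± 9.33 CPM.

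NF-kB genes rose nearly throughout: 18 of 19 tested subunits, inhibitors and deubiquitinases were called higher, with a median of 2.84. Nfkb2 (p100/p52) rose from 55.7 ± 3.29 to 742 ± 39.7 CPM, Relb from 22.8 ± 0.882 to 237 ± 8.84 CPM and the A20-binding inhibitor Tnip1 from 37.8 ± 1.17 to 538 ± 51.3 CPM. Nfkbiz, a nuclear IkB protein needed for secondary response genes such as Il6, rose 108-fold, from 4.66, 4.98 and 5.24 to 521, 535 and 551 CPM. Among MAP kinases and dual-specificity phosphatases, 10 of 23 rose and 6 fell, and 8 rose and 9 fell by library size alone. Their median was 0.22 by TMM and −0.16 by library size alone. The p38 target kinase Mapkapk2 rose from 279.9 ± 4.75 to 2612 ± 28.6 CPM and the ERK and p38 phosphatase Dusp2 from 3.81 ± 0.252 to 135 ± 12.04 CPM. Dusp6 and Dusp7, which act mainly on ERK, fell from 171 ± 10.9 to 12.97 ± 2.84 CPM and from 104 ± 7.41 to 9.93 ± 1.05 CPM. Over all 19 tested genes named Dusp, 6 rose and 10 fell.

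The transcription factors changed in both directions. Of 36 stimulus-induced factors 24 rose and 6 fell. Batf (16.9-fold), Cebpd (9.68-fold), Batf2 (26.6-fold) and Atf3 (4.23-fold) rose, while Jun fell from 277, 274 and 250.5 to 43.7, 32.2 and 36.02 CPM and Myc from 102 ± 6.48 to 43.7 ± 3.93 CPM. Of 23 interferon regulatory factors, STATs and JAKs 14 rose and 3 fell. Irf7 rose from 5.11 ± 0.978 to 580.3 ± 22.7 CPM, Irf1 from 13.4 ± 0.543 to 217 ± 7.92 CPM and Stat2 from 29.3 ± 2.32 to 350.3 ± 8.79 CPM. Irf8, which directs monocyte and dendritic cell development, fell from 304 ± 11.7 to 108 ± 13.3 CPM.

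Of 35 myeloid lineage factors 12 rose and 16 fell. Id1, an inhibitor of helix-loop-helix factors, fell from 98.3 ± 5.91 to 4.90 ± 0.284 CPM, and the lipid-sensing nuclear receptor Pparg from 42.6 ± 0.963 to 8.15 ± 0.916 CPM. Spi1 (PU.1), the lineage-determining Ets factor of myeloid cells, rose from 397, 463 and 481 to 1665, 1717 and 1438 CPM (log2 1.85 ± 0.09). The octamer factor Pou2f2 rose 19.2-fold, the MiT family members Tfec and Mitf 7.49-fold and 3.17-fold, and the oxysterol receptor Nr1h3 (LXR alpha) 4.18-fold. The repressor Gfi1 held 1 count in untreated and 780 in LPS libraries, a ratio of 955-fold with a 95% counting interval of 171 to 37771. Klf2, a quiescence factor of monocytes, fell 2.24-fold.

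Of 41 chromatin and DNA methylation genes 16 rose and 10 fell by TMM and 8 rose and 19 fell by library size alone. The DNA demethylase Tet2 rose from 20.3 ± 1.63 to 136 ± 25.7 CPM, and the RNA-stabilising and chromatin protein Arid5a from 4.60 ± 1.07 to 37.7 ± 3.46 CPM. The histone H3K27 demethylase Kdm6b rose 2.58-fold. The class IIa deacetylases Hdac5 (3.45-fold) and Hdac4 (2.52-fold), the maintenance methylation genes Dnmt1 (3.32-fold) and Uhrf1 (3.05-fold), Tet3 (2.57-fold) and Kdm2b (4.46-fold) fell.

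Of 29 tested interleukins, interferons and TNF-family ligands 22 rose and 5 fell. Their median was 4.39 from the fit and 3.68 with the 5 members at 0 counts in a group put at their bounds. In untreated cells 15 of the 29 held at least 1 CPM. Tnf held 30.1, 31.2 and 31.5 CPM untreated and 1521, 1464 and 1365 CPM with LPS (46.9-fold higher). Il6 held 1 count in the 3 untreated libraries together and 132, 149 and 126 CPM with LPS, a count ratio of 11778-fold with a 95% counting interval of 2113 to 465247. Il1a, likewise at 1 untreated count, reached 82.2, 69.5 and 84.5 CPM. Il1b rose from 1.01 ± 0.317 to 1065 ± 31.4 CPM and its natural antagonist Il1rn from 8.88 ± 0.200 to 262 ± 30.3 CPM. Il27, a regulatory cytokine of the IL-12 family, rose 779-fold to 121 ± 12.3 CPM. Ifnb1 had no untreated count and stood at 5.90, 5.24 and 5.67 CPM with LPS, at least 53.8-fold higher. The anti-inflammatory Il10 rose from 3.65, 4.03 and 3.77 to 14.3, 12.6 and 13.5 CPM (log2 1.81 ± 0.14). The ligands Tnfsf12 (TWEAK) and Tgfb1 fell 4.18-fold and 1.45-fold, and Il16 3.58-fold.

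Most chemokines rose, while 2 ligands of CCR2 fell. Of 24 tested genes 18 rose and 4 fell, with a median of 5.26 (5.22 with bounds), and 15 of the 24 held at least 1 CPM untreated. Cxcl10, a ligand of CXCR3 on T and NK cells, held 1.23, 0.701 and 0.952 CPM untreated and 4699, 4749 and 4627 CPM with LPS. The inflammatory chemokines Ccl3 and Ccl4 rose from 26.9 ± 4.29 to 2612 ± 273 CPM and from 22.1 ± 4.35 to 3839.6 ± 371 CPM, and the CCR4 ligand Ccl22 from 1.75 ± 0.0802 to 294 ± 41.5 CPM. The 4 that fell were Ccl2 and Ccl7, ligands of CCR2, together with Ccl6 and Cxcl14. Ccl2 stood at 1324, 1316 and 1507 CPM untreated and 637, 625 and 537 CPM with LPS (log2 −1.20 ± 0.10), and Ccl7 at 896 ± 50.7 and 542 ± 54.3 CPM. Among secreted proteases, growth factors and complement, 22 of 38 rose and 7 fell. The acute-phase protein Saa3 rose from 0.561, 0.351 and 0.442 to 2689, 2835 and 2089.7 CPM, the membrane metalloprotease Mmp14 from 16.5 ± 2.67 to 974 ± 31.96 CPM, the collagenase Mmp13 from 10.6 ± 1.11 to 217 ± 17.6 CPM and complement C3 from 11.2 ± 2.36 to 382 ± 31.4 CPM. Pdgfa, a growth factor for mesenchymal cells, fell 4.39-fold, and the metalloprotease inhibitor Timp2 2.10-fold.

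**Figure D3:**
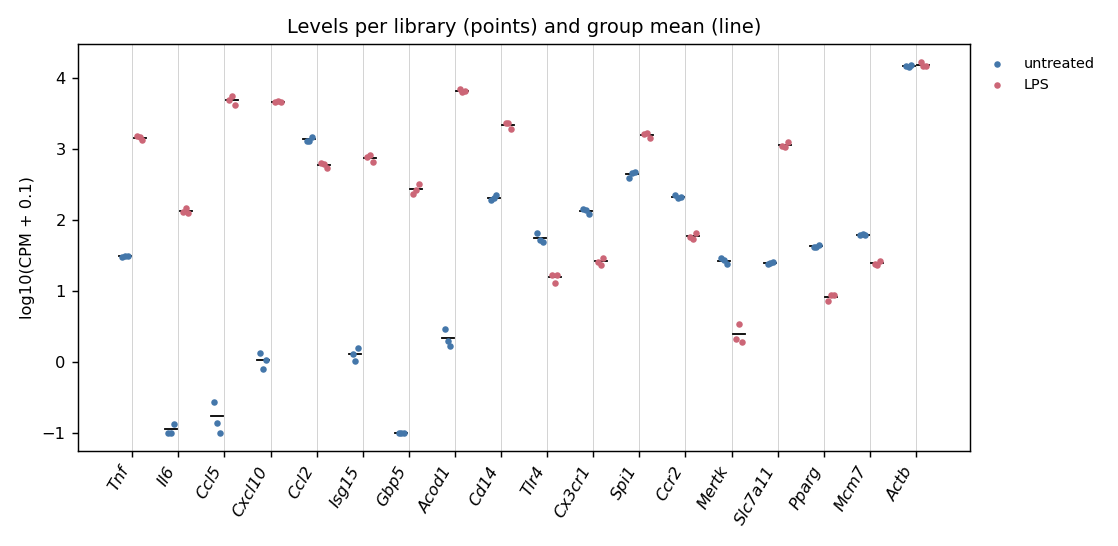
Points give log10 of CPM plus 0.1 in each untreated (blue) and LPS (red) library for 18 genes, and the short line is log10 of the group mean plus 0.1. The 2 groups of 3 points are apart for every gene shown except Actb, at 14959 ± 362 and 15636 ± 952 CPM.

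All tested interferon-stimulated genes rose: 51 of 51 antiviral genes, with a median of 5.42, and 15 of 15 guanylate-binding proteins and immunity-related GTPases. The median of the latter was 7.78 (6.41 with bounds). In untreated cells 39 of the 51 and 4 of the 15 held at least 1 CPM. For members that passed the filter on low counts only through LPS libraries, a call could only be higher. Both lists were written with earlier results of these data known, so these counts are no test of an interferon response. Rsad2 (viperin) held 0.736, 0.596 and 0.612 CPM untreated and 3354, 3299.7 and 3182 CPM with LPS. Ifit1, which binds foreign RNA caps, held 0.140, 0.245 and 0.136 and 2109, 1982 and 1998 CPM. The ubiquitin-like protein Isg15 rose 627-fold and its protease Usp18 266-fold. Oasl1, which limits Irf7 translation, rose 4967-fold, Cmpk2 1345-fold, Gbp2 2821-fold and Gbp3 505-fold. The immunity-related GTPases Igtp, Irgm1 and Ifi47 rose 36.9-fold, 39.6-fold and 82.1-fold. By symbol, 8 of 8 tested Oas and Oasl genes, 8 of 8 Schlafen genes and 9 of 12 PARP genes rose. Parp14, an ADP-ribosyltransferase of interferon responses, went from 21.4 ± 2.58 to 828 ± 94.2 CPM, while Parp1 fell from 145 ± 12.6 to 91.998 ± 5.17 CPM. Reads shared between near-identical members of these families cannot be assigned from gene counts.

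Several of these genes lie side by side. Among the 12500 tested genes placed by symbol in the gene order of RefSeq GRCm38.p6, 1031 were at least 4-fold higher, and 89 of them lay in runs of at least 5 tested neighbours that were all at least 4-fold higher. The longest run held 14 genes at the Ifi200 cluster, from Ifi206 to the olfactory receptor gene Olfr433, with a median log2 change of 6.88. Not all of them are Ifi200 family members. A run of 10 in the Trim30 cluster, from Trim34a to Gm16464, had a median of 4.33, and the 6 genes of the Ifit cluster had a median of 10.5. Runs of 6 or 7 also covered the Oas cluster, the Phf11 genes, Sp110 to Sp100, Irgm1 to Tgtp1, the Ly6 genes, the formyl peptide receptors Fpr1 and Fpr2 with their neighbours, and the C-type lectin genes from Clec2d to Olr1. For falls of at least 2-fold, the only run of at least 5 held 6 genes from Numb to Acot4, with a median of −1.54. The runs were read off after the values were known.

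Promoter sequences of 5 genes that rose and 2 that fell are shown for the motif matches that they hold. The 250 bases before the start site of 7 genes are printed from RefSeq, build GRCm38.p6, 5′ to 3′ on the gene's strand, in lower case with motif matches in capitals. Cxcl10 (chr5:92348890-92349139, minus strand), Isg15 (chr4:156200819-156201068, minus), Gbp5 (chr3:142496684-142496933, plus), Il6 (chr5:30012864-30013113, plus) and Acod1 (chr14:103046762-103047011, plus) rose. Cdc6 (chr11:98907901-98908150, plus) and Mcm7 (chr5:138171884-138172133, minus), which license DNA replication, fell 14.3-fold and 2.54-fold. The 7 genes were chosen after their values and matches were seen.
Cxcl10: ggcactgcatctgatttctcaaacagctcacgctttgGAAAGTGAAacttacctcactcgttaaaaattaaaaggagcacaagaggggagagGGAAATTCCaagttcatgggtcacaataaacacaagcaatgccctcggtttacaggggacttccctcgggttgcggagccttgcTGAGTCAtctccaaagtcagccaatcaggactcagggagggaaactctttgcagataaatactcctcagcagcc
Isg15: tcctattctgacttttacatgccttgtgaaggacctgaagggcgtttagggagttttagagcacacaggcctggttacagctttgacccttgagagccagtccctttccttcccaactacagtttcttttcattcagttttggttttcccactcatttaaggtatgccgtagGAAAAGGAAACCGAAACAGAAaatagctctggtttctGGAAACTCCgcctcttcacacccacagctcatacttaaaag
Gbp5: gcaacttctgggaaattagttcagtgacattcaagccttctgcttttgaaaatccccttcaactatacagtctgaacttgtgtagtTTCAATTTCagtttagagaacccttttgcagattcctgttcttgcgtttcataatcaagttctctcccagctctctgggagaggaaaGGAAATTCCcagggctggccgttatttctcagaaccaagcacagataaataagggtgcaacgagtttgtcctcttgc
Il6: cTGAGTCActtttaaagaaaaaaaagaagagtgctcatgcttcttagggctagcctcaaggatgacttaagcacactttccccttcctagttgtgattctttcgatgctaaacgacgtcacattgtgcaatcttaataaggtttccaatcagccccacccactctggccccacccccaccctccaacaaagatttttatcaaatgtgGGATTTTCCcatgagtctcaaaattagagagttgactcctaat
Acod1: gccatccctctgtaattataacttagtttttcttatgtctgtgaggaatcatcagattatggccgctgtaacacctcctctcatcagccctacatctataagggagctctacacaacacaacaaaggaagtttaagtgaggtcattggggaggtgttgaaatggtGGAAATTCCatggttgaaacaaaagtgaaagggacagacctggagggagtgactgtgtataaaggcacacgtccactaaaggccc
Cdc6: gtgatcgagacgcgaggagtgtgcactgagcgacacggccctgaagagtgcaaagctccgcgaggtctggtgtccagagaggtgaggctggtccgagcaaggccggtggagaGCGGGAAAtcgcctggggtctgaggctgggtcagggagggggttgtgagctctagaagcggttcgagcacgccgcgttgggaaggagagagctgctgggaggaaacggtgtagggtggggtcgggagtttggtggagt
Mcm7: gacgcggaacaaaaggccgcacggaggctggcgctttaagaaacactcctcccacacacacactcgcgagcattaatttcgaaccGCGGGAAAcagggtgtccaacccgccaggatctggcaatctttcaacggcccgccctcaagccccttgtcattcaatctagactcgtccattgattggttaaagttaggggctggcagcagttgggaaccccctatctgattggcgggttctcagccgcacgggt

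The motifs searched, on both strands, were the interferon-stimulated response element core GAAANNGAA, the NF-kB core GGANTTTCC, the AP-1 site TGANTCA, the E2F site TTTNNCGC and the PU.1 core GAGGAAGT. In Cxcl10 the response element begins 213, the NF-kB core 158 and the AP-1 site 74 bases before the start. Isg15 holds overlapping response elements at 78, 72 and 66 bases and an NF-kB core at 41. Gbp5 holds a response element at 164 and an NF-kB core at 77 bases, Il6 an NF-kB core at 43 and an AP-1 site at 249, and Acod1 an NF-kB core at 85. Cdc6 and Mcm7 hold an E2F match at 138 and 165 bases. A match is a string of letters and not a measured binding site.

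Across 9788 tested genes with a RefSeq promoter of 300 bases, the response element core was found in 7.57% (8.57% of all 27025 promoters of that length). It was found in 10.3% of genes that rose, 20.9% of those at least 10-fold higher, 26.8% of those at least 100-fold higher and 6.17% of genes that fell. Among the interferon-stimulated genes with a promoter, 23 of 38 held it. The NF-kB core went from 1.34% of tested genes (1.23% of all promoters) to 5.16% and 10.1% of genes at least 10-fold and 100-fold higher, and stood at 0.553% of genes that fell. The AP-1 site was found in 5.25% of tested genes (7.93% of all promoters), 14.3% of those at least 10-fold higher and 8.41% of those at least 4-fold lower. The E2F site was found in 8.77% of tested genes (5.27% of all promoters), 4.71% of those at least 10-fold higher, 9.73% of those not called, 9.10% of those that fell and 7.54% of those at least 4-fold lower, and was found in 16 of 37 promoters of DNA replication genes. The PU.1 core was found in 3.53% of tested genes (3.28% of all promoters) and 2.98% of those not called. It was found in 5.83% of those at least 10-fold higher, 3.74% of those that fell and 5.22% of those at least 4-fold lower. Matches to different motifs overlapped in at most 9 promoters for any pair, E2F with the response element.

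**Figure D4:**
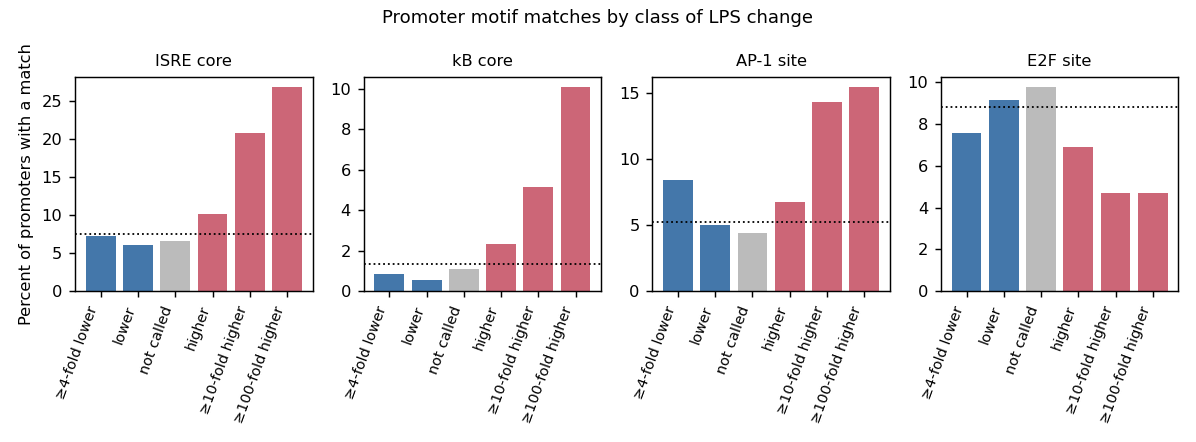
Bars give the percent of 300-base promoters with at least 1 match to each motif, for genes grouped by their change with LPS (blue lower, grey not called, red higher), and the dotted line gives all 9788 tested genes with a promoter. The response element, NF-kB and AP-1 panels are highest among genes at least 100-fold higher (26.8%, 10.1% and 15.4%), while the E2F panel is lowest there (4.70%).

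Antigen presentation genes of class I rose broadly, with 19 of 22 tested genes called higher and a median of 1.90. The peptide transporter subunit Tap1 rose from 22.4 ± 0.770 to 377 ± 15.4 CPM, the loading factor Tapbp from 152 ± 3.18 to 829.8 ± 7.80 CPM and the nonclassical class I gene H2-T23 from 26.8 ± 2.79 to 194 ± 2.21 CPM. Genes named for proteasome subunits followed, with 36 of 46 higher and 2 lower. Their median was 0.46 by TMM and 0.09 by library size alone, under which 15 were higher and 5 lower. Of 25 class II, costimulation and checkpoint genes 18 rose and 4 fell. The costimulatory receptor Cd40 held 18.9, 18.9 and 20.4 CPM untreated and 1544, 1598 and 1561 CPM with LPS, and the costimulatory ligand Icosl rose 26.9-fold. The inhibitory molecules Vsir (VISTA) and Havcr2 (TIM-3) fell 3.01-fold and 4.80-fold.

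Effector genes of killing and inflammation rose in 27 of 35 cases and fell in 3. The mitochondrial superoxide dismutase Sod2 rose from 176 ± 14.5 to 2483 ± 91.5 CPM, the NADPH oxidase subunit Cybb from 156 ± 4.08 to 3048 ± 218 CPM and the LPS-sensing caspase Casp4 (caspase-11) from 2.21 ± 0.298 to 111 ± 1.85 CPM. Arginase 1, Arg1, which competes with Nos2 for arginine, fell from 64.3, 57.3 and 65.8 to 38.4, 35.9 and 29.2 CPM. In prostaglandin synthesis the inducible enzymes Ptgs2 (COX-2) and Ptges rose from 0.965 ± 0.717 to 262 ± 14.5 CPM and from 2.38 ± 0.347 to 697 ± 23.3 CPM, while the constitutive Ptgs1, the prostaglandin D synthase Hpgds and the prostaglandin-degrading Hpgd fell 3.89-fold, 3.53-fold and 10.2-fold. The leukotriene enzyme Alox5 fell 2.20-fold. Over the 23 eicosanoid genes 12 rose and 9 fell, and 9 rose and 9 fell by library size alone. Among mRNA decay factors 17 of 29 rose and 6 fell. Zfp36 (tristetraprolin), which destabilises Tnf mRNA, rose from 136 ± 9.11 to 557 ± 12.99 CPM, and the RNases Zc3h12a (regnase-1) and Zc3h12c rose 13.8-fold and 18.9-fold. The Zfp36 paralogs Zfp36l1 and Zfp36l2 fell 8.79-fold and 9.98-fold.

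Surface receptors changed in both directions. Of 36 chemokine receptors and adhesion genes 17 rose and 12 fell, and 14 rose and 16 fell by library size alone. The CCL2 receptor Ccr2, by which monocytes leave the marrow, stood at 227, 202 and 214 CPM untreated and 57.02, 54.6 and 64.96 CPM with LPS (log2 −1.87 ± 0.10), and the fractalkine receptor Cx3cr1 at 142, 139 and 122 and 25.6, 23.2 and 29.2 CPM (log2 −2.37 ± 0.11). Ccr1 and the complement receptors C5ar1 and C5ar2 fell 3.84-fold, 2.48-fold and 18.3-fold. The chemerin-binding receptor Ccrl2 rose 221-fold, the adhesion ligand Icam1 37.6-fold and the formyl peptide receptors Fpr1 and Fpr2 52.7-fold and 45.8-fold. Of 21 Toll-like and cytosolic pattern receptors 12 rose and 6 fell. Tlr2 rose from 95.5 ± 9.62 to 1569 ± 45.8 CPM, Tlr1 from 19.8 ± 1.40 to 207 ± 15.2 CPM and the peptidoglycan sensor Nod1 from 4.91 ± 0.110 to 54.8 ± 1.99 CPM. Tlr13, a sensor of bacterial ribosomal RNA, fell from 411 ± 48.7 to 116 ± 13.05 CPM and the flagellin receptor Tlr5 from 2.63 ± 0.231 to 0.127 ± 0.137 CPM.

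Of 35 scavenger, efferocytosis and lectin receptors 15 rose and 12 fell by TMM, whereas 12 rose and 19 fell by library size alone. Those that fell included Mertk, a kinase receptor for the uptake of apoptotic cells, from 29.4, 27.1 and 23.9 to 1.99, 3.37 and 1.80 CPM, its ligand Gas6 from 114 ± 4.94 to 43.9 ± 1.74 CPM, Stab1 from 1046 ± 75.6 to 522 ± 25.2 CPM and the haemoglobin scavenger Cd163 from 14.98 ± 0.825 to 1.43 ± 0.561 CPM. Those that rose included the mycobacterial glycolipid receptor Clec4e (Mincle), from 93.6, 88.1 and 106 to 3682, 3394 and 3764 CPM and Clec5a from 51.6 ± 1.54 to 318 ± 12.3 CPM. The fatty acid translocase Cd36 stood at 1675 ± 79.1 and 1431 ± 103 CPM (log2 −0.23 ± 0.10, adjusted p = 0.0672), and was called lower by upper-quartile factors (log2 −0.43, adjusted p = 0.00133) and by library size alone (log2 −0.61, adjusted p = 0.000276). Of 17 tested genes named Clec, 12 rose and 1 fell, and of 8 CD300 receptors 1 rose and 6 fell. Among Fc and paired receptors the inhibitory Fc receptor Fcgr2b rose from 30.5, 29.98 and 31.3 to 478, 467 and 482 CPM while the activating Fcgr3 fell from 442, 454 and 482 to 181, 176 and 173 CPM. The inositol phosphatase Inpp5d (SHIP1) fell 4.77-fold.

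Among 35 cytokine receptors 19 rose and 10 fell. The IL-10 receptor Il10ra rose 5.37-fold and the death receptor Fas 25.9-fold. The IL-6 receptor chains Il6ra and Il6st fell 2.44-fold and 2.42-fold, and the TGF-beta receptors Tgfbr1 and Tgfbr2 2.91-fold and 2.67-fold. Of 32 G-protein-coupled receptors 13 rose and 14 fell. The adenosine receptor Adora2a, which raises cAMP, rose from 1.33, 1.54 and 1.19 to 102, 113 and 106 CPM, the medium-chain fatty acid receptor Gpr84 from 8.42 ± 0.483 to 342 ± 15.7 CPM and the hydroxycarboxylic acid receptor Hcar2 from 0.255 ± 0.0545 to 84.1 ± 4.73 CPM. Gpr183, which senses oxysterols in lymphoid tissue, fell from 117 ± 4.56 to 10.5 ± 1.20 CPM, and Rgs2, a brake on G-protein signalling, from 67.4 ± 4.66 to 8.23 ± 0.722 CPM. Of 11 tested Rgs genes 1 rose and 6 fell.

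In metabolism, single enzymes and carriers changed strongly while the median of most pathways lay within the range that scaling moves. Of 35 glycolysis and hypoxia genes 18 rose and 6 fell by TMM, and 12 rose and 16 fell by library size alone. The glucose transporters Slc2a1 and Slc2a6 rose from 110.4 ± 2.94 to 347 ± 4.24 CPM and from 9.17 ± 1.03 to 342 ± 20.5 CPM, Slc2a3 fell from 18.6 ± 2.68 to 5.13 ± 1.07 CPM, and the glycolytic regulator Pfkfb3 rose from 15.9 ± 3.01 to 116 ± 11.01 CPM. In the citric acid cycle list 12 of 32 rose and 5 fell by TMM, and 5 rose and 18 fell by library size alone. The 17 called were 53.1% of the list, near the 50.7% of all tested genes. The count was 10 without LPS replicate 1, 9 without LPS replicate 3, and 9, 9 and 11 without untreated replicate 1, 2 or 3. Besides Acod1, the dicarboxylate carrier Slc25a10 (6.24-fold) and pyruvate carboxylase Pcx (6.58-fold) rose. Of 47 nuclear-encoded respiratory chain subunits 8 were called higher and 0 lower by edgeR (10 higher and 0 lower at p under 0.05 with no adjustment, while DESeq2 called 8 and 0 and limma-voom 8 and 0), and 0 higher and 14 lower by library size alone. The 8 became 4 without LPS replicate 2, 5 without untreated replicate 1 or 2, and 12 higher with 1 lower without platelet replicate 1.

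Redox, iron and haem genes rose in 24 of 36 cases and fell in 4. The cystine carrier Slc7a11, which feeds glutathione synthesis, held 23.7, 24.7 and 25.2 CPM untreated and 1109.8, 1079 and 1261 CPM with LPS (46.9-fold). The sulfiredoxin Srxn1 rose 3.63-fold, the iron importer Slc11a2 6.42-fold and Spic, a factor of haem-handling macrophages, 56.5-fold, while the transferrin receptor Tfrc fell 1.87-fold. Of 30 amino acid, nucleotide and zinc transporters 15 rose and 6 fell, among them the cationic amino acid carrier Slc7a2 (185-fold higher) and the copper carrier Slc31a2 (10.02-fold higher). In cholesterol synthesis 9 of 30 genes rose and 9 fell by TMM, and 1 rose and 18 fell by library size alone. The squalene epoxidase Sqle fell 2.29-fold. Of 42 lysosomal genes 8 rose and 17 fell by TMM, and 5 rose and 32 fell by library size alone. Beside Ctsl and Ctsd, the proton pump subunit Atp6v0a1 fell from 165 ± 5.56 to 51.9 ± 0.322 CPM, while the cathepsin Ctsc rose from 767 ± 31.2 to 1856 ± 61.7 CPM.

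**Figure D5:**
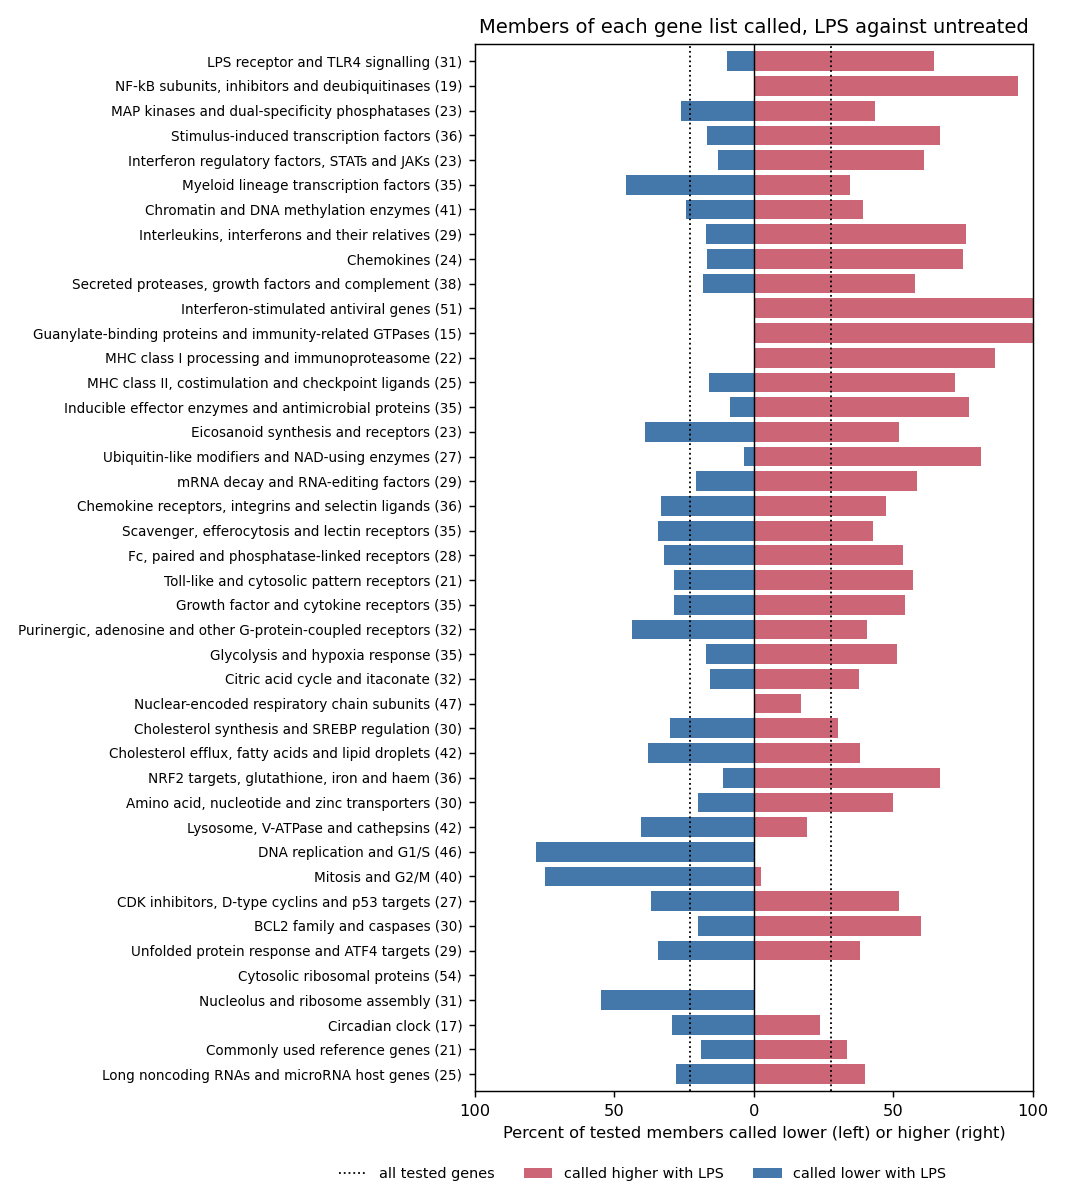
For each gene list outside the cell type and mitochondrial lists, bars give the percent of tested members (number in parentheses) called higher (red, right) or lower (blue, left) by TMM scaling, with dotted lines at 27.7% and 23.0% for all tested genes. By library size alone called rises no longer outnumber called falls in the MAP kinase, chromatin, eicosanoid, chemokine receptor, scavenger receptor, glycolysis, citric acid cycle, respiratory chain, unfolded protein response, reference gene and long noncoding RNA lists.

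Genes of cell division fell. Of 46 DNA replication and G1/S genes 36 fell and 0 rose by edgeR (1 higher and 37 lower at p under 0.05 with no adjustment, while DESeq2 called 37 lower and 0 higher and limma-voom 37 and 0), with a median of −0.86. The S-phase activator E2f2 stood at 25.3, 27.004 and 28.6 CPM untreated and 0.869, 1.22 and 0.926 CPM with LPS. The licensing factor Cdt1 fell from 87.5 ± 4.21 to 11.6 ± 1.15 CPM, the ribonucleotide reductase subunit Rrm2 from 56.5 ± 4.64 to 14.2 ± 1.63 CPM and the helicase subunit Mcm2 from 91.03 ± 1.90 to 26.9 ± 3.08 CPM. Of 40 mitosis genes 30 fell and 1, the securin Pttg1, rose from 30.7 ± 3.78 to 96.7 ± 11.1 CPM. The D-type cyclin Ccnd1 fell from 96.4, 84.4 and 94.5 to 7.75, 6.34 and 5.50 CPM, while the CDK inhibitor Cdkn1a (p21) rose from 690.1 ± 58.6 to 3118 ± 276 CPM and the stress gene Gadd45b from 9.90 ± 1.45 to 315 ± 34.99 CPM. A lower level in bulk RNA does not tell fewer dividing cells from less RNA per cell.

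Among 30 BCL2 family and caspase genes 18 rose and 6 fell, with survival genes in both directions. Bcl2a1d, Bcl2a1a and Birc3 rose 160.0-fold, 1363-fold and 19.4-fold, whereas Bcl2l1 (BCL-XL) fell from 161, 167 and 160.2 to 32.7, 32.4 and 31.9 CPM and Bcl2 from 13.96 ± 0.830 to 4.85 ± 0.954 CPM. The Bcl2a1 genes are near-identical copies whose reads may be split between them. In the unfolded protein response list 11 of 29 rose and 10 fell by TMM, and 8 rose and 17 fell by library size alone. The phosphatase subunit Ppp1r15a (GADD34) rose 17.7-fold, and the stress sensors Eif2ak3 (PERK) and Ern1 (IRE1) fell 2.66-fold and 2.01-fold. Of 31 nucleolar and ribosome assembly genes 17 fell and 0 rose by edgeR (1 higher and 18 lower at p under 0.05 with no adjustment, while DESeq2 called 17 lower and 0 higher and limma-voom 17 and 0). The pseudouridine synthase Dkc1 fell 2.32-fold and the small nucleolar ribonucleoprotein Nop56 1.85-fold. Of 13 small nucleolar RNA host genes 7 fell and 0 rose.

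Cytosolic ribosomal protein genes did not pass the test: 0 of 54 were called by edgeR (1 at p under 0.05 with no adjustment, while DESeq2 called 0 higher and 0 lower and limma-voom 0 and 0), with a median of 0.02. By library size alone their median was −0.36 and 33 were called lower. Without LPS replicate 3 or platelet replicate 1, 2 and 4 were called higher. Of 21 common reference genes 7 rose and 4 fell by TMM, and 3 rose and 14 fell by library size alone. The 11 called were 7 without untreated replicate 2. Actb was at log2 0.06 ± 0.08 (adjusted p = 0.532), B2m rose from 469 ± 51.6 to 1451 ± 76.02 CPM, and Tubb5 fell from 506 ± 22.9 to 304 ± 33.1 CPM. Of 17 circadian clock genes 4 rose and 5 fell, among them Cry1 (1.89-fold higher) and Per1 (3.03-fold lower). The shares called in the reference gene and clock lists, 52.4% and 52.9%, were near the 50.7% of all tested genes. Of 25 long noncoding RNAs and microRNA host genes 10 rose and 7 fell by TMM, and 7 rose and 13 fell by library size alone. Mir155hg, the host transcript of microRNA-155, held 2 counts untreated and 1000 with LPS, a ratio of 612-fold with a 95% counting interval of 169 to 5062, and Neat1, the scaffold of paraspeckles, fell from 277 ± 21.2 to 144 ± 22.1 CPM.

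Markers of other cell types were set beside these values. Of 13 dendritic cell markers 7 rose and 2 fell, and they summed to 95.2 to 109 CPM untreated and 358 to 443 CPM with LPS. The actin bundler Fscn1 went from 0.0804 ± 0.0513 to 37.4 ± 8.36 CPM and the chemokine receptor Ccr7 from 0.314 ± 0.215 to 34.2 ± 3.17 CPM, while the classical dendritic cell factor Batf3 fell 3.34-fold. Of the cross-presenting dendritic cell markers, the chemokine receptor Xcr1 rose from 0.0917 ± 0.0700 to 9.61 ± 0.682 CPM, and the lectin Clec9a had 0 to 2 counts per untreated and 2 to 10 counts per LPS library. Of 6 tested basophil and mast cell markers 3 rose and 1 fell. The list summed to 1.47 to 2.56 and 105 to 109 CPM through Hdc, which makes histamine (0.281, 0.105 and 0.306 and 102, 106 and 102 CPM). The stem cell factor receptor Kit held 3 counts untreated and 110 with LPS, a ratio of 44.9-fold with a 95% counting interval of 14.97 to 221. The transcription factor Gata2 stood at 0.267 ± 0.167 and 0.616 ± 0.0611 CPM (edgeR adjusted p = 0.0437), a call lost in 15 of 21 alternatives, among them without any 1 LPS or platelet replicate, untreated replicate 1 or 3, or platelet plus LPS replicate 1 or 2 (adjusted p 0.0547 to 0.166 over the 15). The IgE receptor genes Fcer1a and Ms4a2 had at most 10 counts in any of the 6 libraries. In the stromal list 3 of 5 tested genes rose and 0 fell. It summed to 2.07 to 2.89 and 36.3 to 43.4 CPM through Pdgfrb (0.0815 ± 0.0813 and 32.9 ± 3.22 CPM), with the collagen genes Col1a1, Col1a2 and Col3a1 at 0 to 3 counts per library. Neutrophil granule genes Elane and Mpo had at most 6 counts in any of the 6 libraries. Of 10 tested neutrophil markers 2 rose and 2 fell: the G-CSF receptor Csf3r rose from 21.7 ± 1.94 to 57.99 ± 4.82 CPM, while the collagenase Mmp8 fell from 342 ± 8.31 to 230.0 ± 27.1 CPM and Retnlg from 0.498 ± 0.0257 to 0.0483 ± 0.0836 CPM. The classical monocyte marker Ly6c2 rose from 38.3 ± 3.96 to 82.1 ± 9.45 CPM, and the macrophage marker Adgre1 (F4/80) from 794 ± 39.8 to 3626 ± 58.5 CPM. The part of other cells in these results was not tested.

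The 6 libraries with platelets gave a second measure of the LPS effect in which no library is shared. There 6498 genes, or 49.4% of those tested, were called for LPS. Of the 6661 genes called without platelets, 5413 were called in the same direction after platelets, which is 81.3% of the first list and 83.3% of the second. The difference of the 2 LPS effects was called for 208 genes, or 1.58% of those tested, with 113 differences above 0 (0.859%) and 95 below 0 (0.722%). Of these 208 genes, 192 were also called for LPS without platelets. In 168 of them the difference had the sign opposite to that LPS effect, a smaller or reversed effect after platelets. In 24 it had the same sign. The selection and the difference both use the LPS effect without platelets, which favours opposite signs. The split is therefore no test of a weaker response after platelets. In 11 of the 208 the LPS effects were called in both settings with opposite signs. For the rise of Ccl5, the effect was 16.04 ± 0.32 without and 11.39 ± 0.25 after platelets (difference −4.66 ± 0.51, adjusted p = 0.000156), and Ccl5 stood at 2.57, 1.31 and 1.96 CPM after platelets alone. For Saa3 the effects were 12.44 ± 0.19 and 9.48 ± 0.16 (difference −2.97 ± 0.23, adjusted p = 2.52e-05). Il10 went the other way, with 1.81 ± 0.14 and 3.58 ± 0.15 (difference 1.77 ± 0.20, adjusted p = 0.000229). For the falls of Cx3cr1 and Ccl2 the differences were 1.44 ± 0.14 and 1.40 ± 0.15. The count of 208 rests on few libraries. It was 98, 121 and 152 without LPS replicate 1, 2 or 3, 116, 87 and 135 without untreated replicate 1, 2 or 3, 361, 122 and 209 without platelet replicate 1, 2 or 3, and 114, 113 and 115 without platelet plus LPS replicate 1, 2 or 3. Platelet replicate 1 carries the word Control in its description while its title and treatment name platelets.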

How the data were processed

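RNA was sequenced from 12 libraries in 4 groups of 3, and the comparison described here is between 3 LPS and 3 untreated libraries. Per the labels' protocols, RNeasy Plus Micro served to extract the RNA, a SMARTer Ultra Low Input v4 reaction to amplify it and Nextera XT to build the libraries. Tools named in the submitters' processing notes, without their roles, are Salmon 1.5.2, featureCounts of Subread 2.0.1, STAR 2.7.9a and fastp 0.23.1. The authors deposited raw counts of reads for 53819 genes, as whole numbers. Build, annotation and strand setting: not given in the sources used here. Overlapping and antisense genes therefore cannot be told apart. PCR copies were not marked by molecular identifiers and reads are not independent molecules, so counting intervals and floors cover counting error only.

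Counts were filtered with filterByExpr of edgeR 4.0.16 (R 4.3.3), which kept 13151 of 26048 genes with a count. They were scaled by TMM and fitted with the quasi-likelihood model of edgeR, with all 12 libraries in 4 group means leaving 8 residual degrees of freedom. All p-values are two-sided, adjusted by Benjamini-Hochberg and called at 0.05. The SE of a log2 change is its size divided by the root of its F statistic. Where a group had no counts, the fold is a lower bound that assumes 3 counts per library there, and where it had 1 to 3, the count ratio is given with its exact 95% interval. The method was run on simulated counts in which far fewer genes changed than were called here, in random directions and by modest folds. That setting lacked the shift in composition of the LPS libraries and does not bear on the choice of scaling.

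The 52 gene lists hold 1520 entries, of which 1414 were tested, and they, the families and the motifs were chosen with earlier results of these data known. Lists are described by counts called and their median, with no test of the list. Genes are named by rule: the 12 largest rises and falls by fold and the 8 largest by CPM difference, with at least 10 CPM in the higher group and no overlap between groups, up to 4 members of each list by smallest p and any called against its list's direction, up to 4 called members of each symbol family by CPM, 27 fixed genes, the 6 largest differences of the LPS effects in each direction, and the 8 most abundant genes that were not called. Cdc6, the untested marker genes and the genes that end a run of neighbours were chosen after their values were seen. Some genes that the rule names are not reported here. The alternatives were scaling by library size alone, by upper-quartile factors or by the size factors of DESeq2, no filter or a stricter filter (1 CPM in 3 libraries and 10 counts in 3), limma-voom (limma 3.58.1), DESeq2 1.42.0 with its Wald test, a replicate block, only the 6 libraries compared, and each library left out in turn. Motifs were searched in RefSeq promoters of 300 bases, the first listed for each symbol.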

Additional observations from a re-analysis of the deposited data

Results flagged for a closer look

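The LPS effect after platelets differed from that without platelets in 208 genes by the interaction test of edgeR (adjusted p under 0.05), and 39 of them are named here or in the report. Each value below is the LPS log2 effect after platelets minus that without. The 2 effects share no library.

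Named genes that rose with LPS and had a difference below 0, a smaller rise after platelets, were, among cytokines and secreted proteins, Ccl5 (−4.66), Il1a (−4.04), Saa3 (−2.97) and Mmp14 (−1.79). Il1a had 1 count in untreated libraries and Ccl5 had 6, so the size of these 2 values leans on the fit at low counts. Untreated means were also under 1 CPM for Bcl2a1a (0.0917 CPM), Ifit1 (0.174 CPM), Saa3 (0.451 CPM), Hdc and Ccr7, whose values share this limit. The interferon-stimulated Ifit1 had −2.06, the chemokine receptor Ccr7 −2.89, the survival genes Bcl2a1a and Birc3 −2.31 and −0.74, the histamine enzyme Hdc −1.87 and the transcription factors Spic, Batf and Tfec −1.55, −0.83 and −0.57. In the signalling and NF-kB lists, Traf1 had −0.66, Irak2 −0.64, Nfkb2 −0.59 and Relb −0.45. Among surface proteins, Ccrl2 had −0.85, Icam1 −0.62, Il10ra −0.60 and Fcgr2b −0.56. The carriers Slc2a6 and Slc25a10 had −0.91 and −0.53.

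Of the named genes that rose with LPS, Il10 (1.77), the B cell and myeloid surface protein Cd72 (1.46) and Mmp13 (1.25) had a difference above 0. Named genes that fell with LPS without platelets and had a difference above 0 were Pdgfa (1.47), Cx3cr1 (1.44), Ccl2 (1.40), Ccl7 (1.30) and Zfp36l2 (1.18). Smaller values were found for Cdt1 (0.96), Ern1 (0.92), Snx30 (0.88), Bcl2l1 (0.68), Il6ra (0.68), Irf8 (0.66), Tgfb1 (0.52) and Stab1 (0.48). After platelets Ccl7 rose (0.57 ± 0.12), and Ccl2 (0.20 ± 0.10), Ern1 (−0.09 ± 0.14) and Tgfb1 (−0.01 ± 0.08) were not called. The interferon gamma receptor Ifngr1 fell in both settings (−0.26 ± 0.09 and −0.86 ± 0.09), with a difference of −0.60. Its fall without platelets was not called without LPS replicate 2 or untreated replicate 1 or 3 (edgeR adjusted p = 0.118, 0.0684 and 0.0531).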

How the results depend on the processing

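The 6661 genes called for LPS were 5906 to 7426 with each library left out in turn and 6315 to 8108 under the other settings, and the 6498 called after platelets were 5835 to 6754 and 6163 to 7943. The 208 differences of the LPS effects were less steady: 87 to 361 with a library left out, 371 with no filter, 394 by DESeq2 and 118 with the replicate block, and 174 to 218 under the others. The cause was not tested. Of the 234 named genes called for LPS, 232 kept their sign and their call in every alternative in which they were tested, and the calls of Gata2 and Ifngr1 were lost in 15 and 3 of 21. Acot4, Gm16464 and Retnlg were not tested under the stricter filter, nor Gm16464 with only the 6 libraries. Among named genes that were not called, Lyz2, Cd36, Csf1r and Actb were called in 1 or more settings, Csf1r for example with only the 6 libraries fitted (log2 0.30, adjusted p = 0.00117) and Actb by library size alone (log2 −0.32, adjusted p = 0.00128).

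The scaling moved lists whose members changed little. By upper-quartile factors the members called were 18 for the citric acid cycle (5 higher, 13 lower), 2 for the respiratory chain (both lower), 9 for reference genes (3 and 6), 1 ribosomal protein and 26 nucleolar genes. By library size alone they were 27 for chromatin (8 higher, 19 lower), 23 for the citric acid cycle (5 and 18), 14 for the respiratory chain (0 and 14), 17 for reference genes (3 and 14), 33 ribosomal proteins and 28 nucleolar genes. With no filter they were 10 for the citric acid cycle, 2 ribosomal proteins and 8 reference genes (3 higher, 5 lower), and with only the 6 libraries 1 ribosomal protein. Leaving out a library gave 9 to 20 for the citric acid cycle, 4 to 13 for the respiratory chain, 0 to 4 ribosomal proteins and 7 to 12 reference genes. By library size alone the called falls also rose more than 1.5 times in lists that kept a majority of rises. They went from 3 to 6 for TLR4 signalling, 0 to 1 for NF-kB genes and 3 to 6 for interferon regulatory factors, STATs and JAKs. Secreted proteins went from 7 to 14, class I genes from 0 to 3 and class II genes from 4 to 7. Effector genes went from 3 to 7, ubiquitin-like modifiers and NAD-using enzymes from 1 to 2 and redox genes from 4 to 11. In all, 1045 of 1092 counts over the 52 lists stayed within 1.5 times the value reported and kept the direction of most called members, where a list with neither side 1.5 times the other has no direction.

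Replicate numbers are shared by the groups in the labels. Deviations of same-numbered LPS and untreated libraries from their group means had correlations of −0.0004, 0.0278 and −0.128 for numbers 1, 2 and 3. Pairs with unlike numbers had −0.0966 to 0.097. With 3 libraries per group, each centred on its own mean, these values cannot tell whether libraries of one number share a mouse, culture or batch. With the replicate block 6359 genes were called for LPS. Depth limits genes near 3 counts per library (0.102 to 0.163 CPM): 436 of the 638 genes at least 10-fold higher had untreated means under 1 CPM, and their folds are the least precise.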
